A study of Mus musculus with 2 samples.

Results

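The regions described here are the p53 ChIP-seq peaks that lie beside the centromere on the mouse autosomes. They were taken by position alone, as the peaks of build mm9 on chromosomes 1 to 19 whose start lies under 4 Mb. The assembled sequence of mm9 autosomes begins after a gap of 3 Mb at the centromere, so these peaks occupy the first assembled megabase of each chromosome. There were 632 of them among 92924 peaks in all (0.680%), 92231 of which were autosomal. The peaks come from mouse embryonic stem cells of a C57BL/6X129Sv mix below passage 20, grown with leukemia inhibitory factor and treated for 8 hours with Nutlin, for which the series design states 20 µM but the protocols of both samples state 20 mM. The p53 ChIP library (antibody M-19) and the input library, 1 of each, both came from treated cells. No untreated library and no replicate was analysed here, so the values describe where peaks lie after Nutlin and not a change caused by it, and they carry no error between cultures.

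p53 is a DNA-binding transcription factor that the ubiquitin ligase Mdm2 keeps at a low level, and Nutlin blocks the contact between these proteins. Mouse chromosomes carry the centromere close to one end, flanked by long arrays of satellite repeats that are packed as heterochromatin and are mostly missing from the assembly. The sequence next to the gap is therefore the assembled part of an autosome nearest to these arrays. In ChIP-seq, reads from repeated sequence can be placed at the few copies that an assembly holds, and broad blocks of signal are commonly set apart for that reason. Peaks wider than 4 kb are treated separately below as possible repeat signal, and their mapping was not tested. The score of each peak is the authors' own, written by their peak caller. It starts at 50, rises with the strength of the evidence against input on the caller's −10 × log10 scale, and compares peaks only inside this list. Read depth is not given in the sources used here.

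The first assembled megabase held p53 peaks on all 19 autosomes, in very different numbers. Chromosome 11 carried 99 peaks, chromosome 19 carried 89 and chromosome 8 carried 69, which together made up 40.7% of the 632. At the low end stood chromosome 14 with 1 peak and chromosomes 1 and 15 with 7 each. Chromosomes 3, 6 and 9 carried 13, 12 and 10 peaks. Chromosome 12 had 55 peaks, chromosome 7 had 44, chromosome 17 had 41, chromosome 16 had 37 and chromosome 4 had 31. Chromosomes 2 and 5 had 28 each, and chromosomes 10, 13 and 18 had 25, 20 and 16. The count was thus 33.3 ± 27.7 per Mb (mean ± SD, n = 19 autosomes), with a median of 28, and the SD was nearly as large as the mean.

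**Figure D1:**
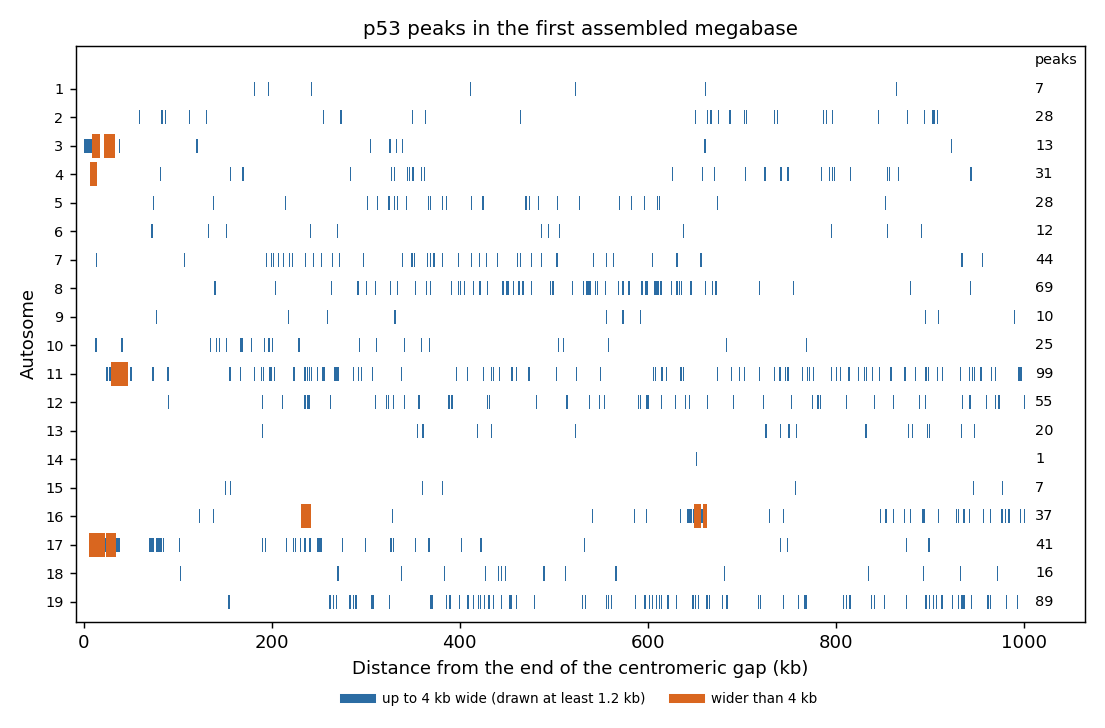
Position of the 632 peaks along the first assembled megabase of each autosome (horizontal axis: distance from the end of the centromeric gap in kb; vertical axis: autosome; numbers at the right: peaks). Peaks wider than 4 kb (orange) lie close to the gap on chromosomes 3, 4, 11 and 17 and farther in on chromosome 16, while narrower peaks (blue) are spread along the megabase.

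The density of p53 peaks beside the gap did not differ by a detectable amount from that in the following 5 Mb. Pooled over the autosomes it was 33.3 peaks per Mb against 32.3 (3065 peaks starting from 4 to under 9 Mb), a ratio of 1.03 with an exact conditional 95% interval of 0.945 to 1.12 that covers counting error of peaks only. Per autosome the difference was 1.00 ± 16.996 peaks per Mb (mean ± SD, n = 19), with the first megabase higher on 7 autosomes and lower on 12. An exact two-sided sign-flip permutation test over the 19 autosomes gave p = 0.826, and the same value after Benjamini-Hochberg adjustment over the 4 paired measures (density, width, score and distance). Single autosomes could still differ. Chromosome 8 carried 69 peaks beside the gap against 16 per Mb in the next 5 Mb, and it was the only autosome whose first megabase exceeded each of the 5 that followed. Without chromosome 8 the mean difference turned to −1.89 peaks per Mb. Against all later peaks of each chromosome, the first megabase was lower by a mean of −5.29 peaks per Mb (adjusted p = 0.365, same exact permutation test).

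Several autosomes had a lower density beside the gap than in the next 5 Mb. Chromosomes 1 and 15 had fewer peaks in the first megabase than in any of the 5 after it, except that on chromosome 15 the third also held 7. Chromosome 1 had 7 per Mb against 18.6, chromosome 15 had 7 against 21.8, and chromosome 17 had 41 against 57.4. Chromosome 14 had 1 peak, at 3651225 to 3651735 (511 bases, score 148.22), and the next peak started 1420327 bases farther on. Its following 5 Mb held 9 peaks per Mb, 42 of its 45 peaks in the last of them. Densities of neighbouring stretches ran in parallel over the autosomes, with Pearson's r of 0.79 and Spearman's rho of 0.61 between the first megabase and the next 5 Mb (n = 19 autosomes of the same library). Without chromosomes 19 and 11, the 2 autosomes farthest from the median on the axis of the next 5 Mb, r was 0.43 and rho 0.46.

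**Figure D2:**
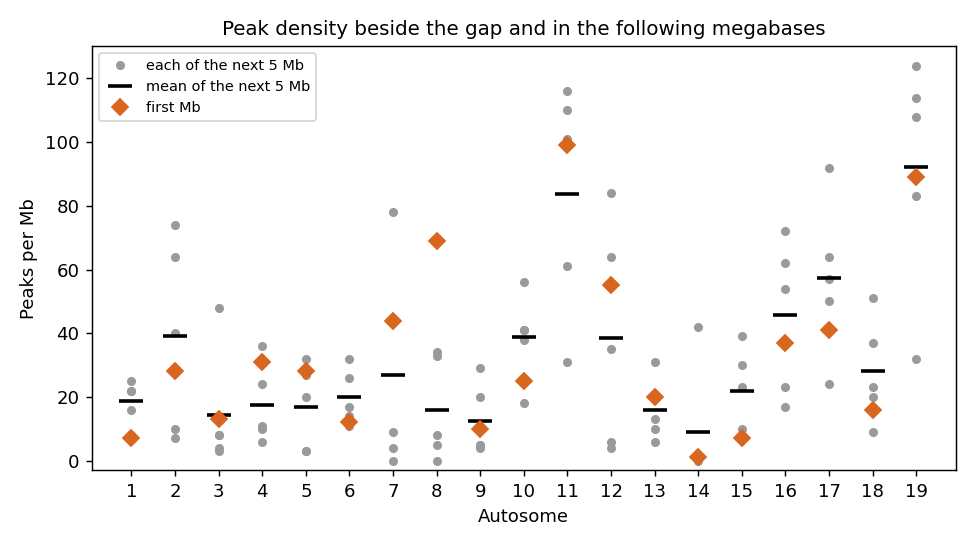
Peaks per Mb on each autosome in the first assembled megabase (orange diamonds), in each of the next 5 (grey circles) and as the mean of those 5 (black bars). The first megabase lies above all 5 on chromosome 8 alone, at 69, and chromosomes 11 and 19 are the highest both in the first megabase and in the mean of the next 5.

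The first 50 kb after the gap held no peak on 13 of the 19 autosomes. Other stretches of 50 kb were not counted. In steps of 100 kb, the first held peaks on 11 autosomes and the later ones on 12 to 17, so such emptiness was not particular to the edge. The first peak lay a median of 76.5 kb from the end of the gap, and 6 of the 19 lay within 50 kb. On chromosome 3 the first peak began at 2999916, 85 bases before the end of the gap, and ran to 3001426 (score 276.41). On chromosomes 17 and 4 the first peaks were wide ones at 3006096 and 3006396, and on chromosomes 10, 7 and 11 they were narrow ones at 3012549, 3013389 and 3023626 with scores of 61.57, 66.49 and 738.28. These 6 autosomes held every peak of the first 50 kb.

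Between 50 and 100 kb from the gap lay the first peaks of chromosomes 2, 6, 5, 9 and 12, at 3058580, 3072123, 3073928, 3076539 and 3089288. Their scores ran from 55.33 on chromosome 2 to 1848.28 on chromosome 6. The other 8 autosomes had no peak in the first 100 kb. Their first peaks had scores of 55.37 on chromosome 8, 59.15 on chromosome 16, 87.68 on chromosome 1, 148.22 on chromosome 14, 161.91 on chromosome 13, 293.4 on chromosome 19, 1258.3 on chromosome 18 and 3100 on chromosome 15. Of the 19 first peaks 5 scored 1000 or more (26.3%, against 5.75% of all autosomal peaks) and 6 scored under 100 (31.6%, against 57.2%). Their median score was 162, against 87.3 on all autosomes, and 2 of the 19 were wider than 4 kb.

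Peaks wider than 4 kb were frequent beside the centromere. Of the 632 peaks 10 were wider than 4 kb (1.58%, exact Clopper-Pearson 95% interval 0.761% to 2.89%), against 18 of all 92231 autosomal peaks (0.0195%), a count that includes these 10. The next 5 Mb held 0 among 3065 (upper bound 0.120%). The 10 peaks lay on chromosomes 3, 4, 11, 16 and 17, and joined where up to 10 kb apart they formed 6 regions, so they are not 10 independent regions. At widths of 2 to 4 kb the same direction was seen, with 8 of 632 (1.27%), on 5 autosomes, against 135 of 92231 (0.146%). The next 5 Mb held 6 of 3065 (0.196%). Most of the 8 lay close to the wide regions, so they are not independent of them. The intervals cover counting error only and would be wider if the shared position of neighbouring peaks were allowed for.

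Chromosome 17 had the longest wide region, from 3006096 to 3034269, 6.1 kb from the gap. Its 3 wide peaks measured 7939 bases (score 2804.34), 8738 bases (score 1262.44) and 10106 bases (score 2812.8). The first of them was followed by 248 bases without a peak, and a peak of 798 bases (score 166.07) lay between the others, with 175 bases before it and 170 after it. Wide peaks covered 95.1% of the 28174 bases. A peak of 2332 bases (score 1002.27) and a peak of 1981 bases (score 649.3) followed directly, up to 3039001. In the first 50 kb of chromosome 17, 63.8% of the bases lay in peaks. After an empty stretch of 31047 bases came 9 narrower peaks between 3070049 and 3084789, 778 bases wide at the median and scored from 50.81 to 820.07, a crowding of 61.1 peaks per 100 kb.

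On chromosome 3 the signal began at the gap itself. Peaks of 1511, 3212, 3757, 8076 and 12353 bases followed each other from 2999916 to 3033519, with scores of 276.41, 794.11, 944.27, 884.5 and 970.33. Stretches of 71, 257, 499 and 3868 bases lay between them. They were followed by a peak of 395 bases with a score of 69.86, and then by 81940 bases without a peak. Peaks covered 58.4% of the first 50 kb of this chromosome, which otherwise had only 7 peaks in its first megabase.

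The widest peak of the whole list lay on chromosome 11 from 3028747 to 3047401, with 18655 bases and a score of 410.21. It was 28.1 times as wide as the median autosomal peak of its score class (664 bases at 200 to under 500), and its score was the lowest among the 10 wide peaks. Before it stood 4 narrow peaks with 951, 347, 178 and 118 bases after each, among them 1 of 1426 bases at 3026650 with a score of 2234.99. The next peak, at 3049387, had 2531 bases and a score of 1809.91. Of these 5 neighbours 3 scored higher than the wide block and 2 lower, with 406.29 at 3025233 and 175.14 at 3028254, the latter directly before it. Peaks covered 45.6% of the first 50 kb of chromosome 11.

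Chromosome 4 had a single wide peak close to the gap, from 3006396 to 3013782 (7387 bases, score 3100), with no other peak for 67032 bases after it. On chromosome 16 the wide peaks lay farther from the gap. A peak of 10069 bases from 3231475 to 3241543 (score 3100) stood alone, with 86720 bases to the next peak. A second region from 3649230 to 3663293, about 649 kb from the gap, held wide peaks of 7473 bases (score 2900.29) and 4749 bases (score 1566.34), and a peak of 3242 bases (score 1846.67) ended shortly before it, at 3645369. Wide peaks of the first megabase were therefore not all at its edge: 7 of the 10 began in the first 50 kb.

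Most of the wide peaks were also strong. Their median score was 2185, and 7 of 10 scored 1000 or more, against 5.75% of all autosomal peaks. They were picked by width, and width and score were related across all autosomal peaks (Spearman's rho 0.61). Widths of these 10 were 6.03 to 28.1 times the median width of all autosomal peaks in the same score class. No class median exceeded 960.5 bases, so a large ratio was fixed by the 4 kb limit and only its size describes the peaks. The 8 other wide peaks of the list lay at least 23455 kb from the end of the gap, on chromosomes 5, 7, 10, 17 and 18, with a median width of 4469 bases against 8407 bases for the 10 beside the centromere. All 8 scored above 1000, with a median of 2413, so high scores were not particular to the wide peaks beside the centromere. Together the 10 wide peaks made up 20.3% of the bases that peaks covered in the first megabase. With them, peaks covered 2.47% of the 19 Mb. Without them the value was 1.97%, against 1.81% in the next 5 Mb.

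**Figure D3:**
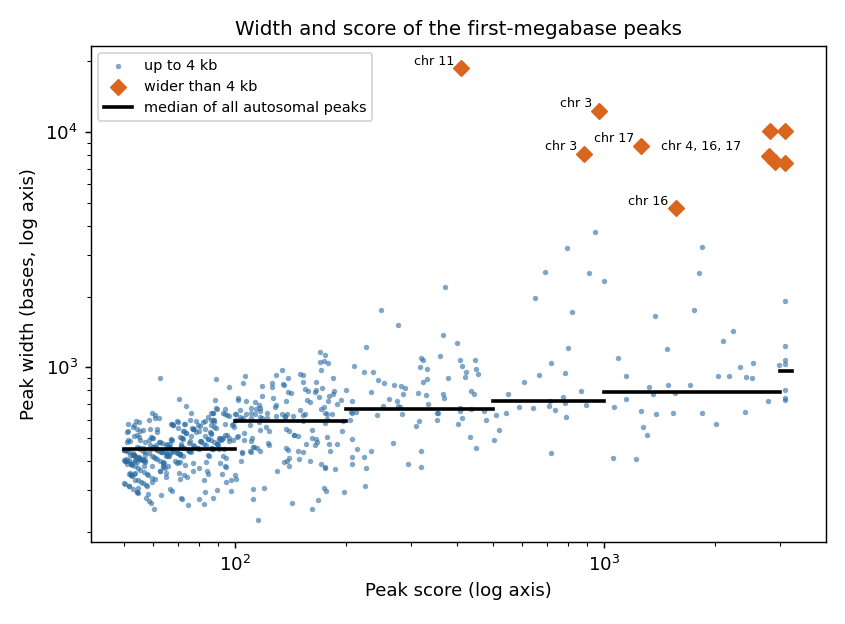
Width in bases against score (both axes logarithmic) of the 632 peaks of the first megabase. Black bars mark the median width of all autosomal peaks in 6 score classes, and narrower peaks (blue) scatter around it. The 10 peaks wider than 4 kb (orange, labelled by chromosome) have 6.03 to 28.1 times that median, a ratio made large by the 4 kb limit itself.

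The other 622 peaks, each up to 4 kb wide, had widths close to those of the autosomal list. Their median width was 507 bases (quartiles 421 and 668), against 509 bases (417 and 640) for all autosomal peaks and 507 bases (416 and 639) in the next 5 Mb. In the weakest class, scores of 50 to under 100, the medians were 446 bases beside the gap and 448 bases on all autosomes. At scores of 200 to under 500 the narrower peaks beside the gap measured 735 bases at the median against 664. At 1000 to under 3000 they measured 841 bases against 788. Width and score were related across the 632 peaks (Spearman's rho 0.66, a description across peaks of a single library) much as across all autosomal peaks (0.61).

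Scores beside the gap were somewhat higher than farther in. The median score of the 632 peaks was 94.96 (quartiles 65.5 and 195), against 86.5 (62.1 and 176) in the next 5 Mb and 87.3 on all autosomes. Averaged over autosomes, the median score was 117 ± 48.3 beside the gap and 90.6 ± 9.14 in the next 5 Mb (mean ± SD, n = 19). The difference of 26.1 ± 48.1 passed the exact two-sided sign-flip permutation test over 19 autosomes (p = 0.00714, adjusted p = 0.0286 over the 4 measures), and 13 autosomes were higher beside the gap. The widest gap was on chromosome 3, with a median of 276 against 84.2, followed by chromosome 4 (159 against 85.4) and chromosome 13 (164 against 94.0). The 6 autosomes that were lower beside the gap were chromosomes 5, 6, 7, 8, 16 and 19, among them chromosomes 8 and 19 with the most peaks after chromosome 11. The call was fragile. It was kept without the wide peaks (difference 21.8, adjusted p = 0.0339 in the exact permutation test) but lost in 10 of 25 other settings, in which the adjusted p of the exact permutation test lay between 0.0503 and 0.182. These included leaving out chromosome 3 (difference 16.8, adjusted p = 0.0571, exact permutation test) or any of chromosomes 1, 2, 4, 13, 14 and 17. Medians on chromosomes 1, 14 and 15 rest on 7, 1 and 7 peaks, and with the 16 autosomes that had 10 or more, a restriction chosen after seeing the data, the adjusted p of the exact permutation test was 0.170.

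The share of strong peaks beside the gap depended on where strong begins. Scores of 1000 or more were given to 49 of 632 peaks (7.75%, exact 95% interval 5.79% to 10.1%), against 5.75% of all autosomal peaks and 5.87% in the next 5 Mb (180 of 3065), a value inside that interval. At 3000 or more the order turned, with 1.42% beside the gap, 1.66% in the next 5 Mb and 1.69% on all autosomes. Without the wide peaks the share was 6.75% (42 of 622, interval 4.91% to 9.02%), an interval that includes the share on all autosomes. Scores of 100 or more were given to 305 of 632 (48.3%, 44.3% to 52.2%), against 42.8% of all autosomal peaks, and to 47.4% of the narrower ones. The strong peaks were thus only partly the wide ones.

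The 42 strong peaks of ordinary width lay on 17 autosomes, all but chromosomes 9 and 14, and had a median width of 871 bases against 830 for such peaks on all autosomes. A score of exactly 3100, the value at which many peaks of the list pile up, was given to 9 of the 632 (1.42%, against 1.50% of all autosomal peaks), 7 of them up to 4 kb wide, and no peak beside the gap scored above it. Chromosome 8 had 2 of these 7, at 3598511 to 3599742 and at 3606640 to 3608558. Chromosome 11 had 2, at 3154329 to 3155132 and at 3266011 to 3267047. The others were at 3150209 to 3150951 on chromosome 15 and at 3533026 to 3534101 and 3874882 to 3875605 on chromosome 19. The narrowest measured 724 bases (chromosome 19) and the widest 1919 bases (chromosome 8). The next by score were at 3545935 on chromosome 8 (1025 bases, score 2987.14), at 3796206 on chromosome 2 (717 bases, score 2785.6) and at 3907121 on chromosome 11 (1045 bases, score 2540.66). None of these 10 lay in the first 100 kb, which held only 6.65% of the 632 peaks. Other narrow peaks scoring 1000 or more did lie there. They stood beside the wide blocks on chromosome 11 (scores 2234.99 and 1809.91) and chromosome 17 (1002.27), and on chromosome 6 (1848.28). The peak on chromosome 15 was the first of its chromosome, 150 kb from the gap.

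**Figure D4:**
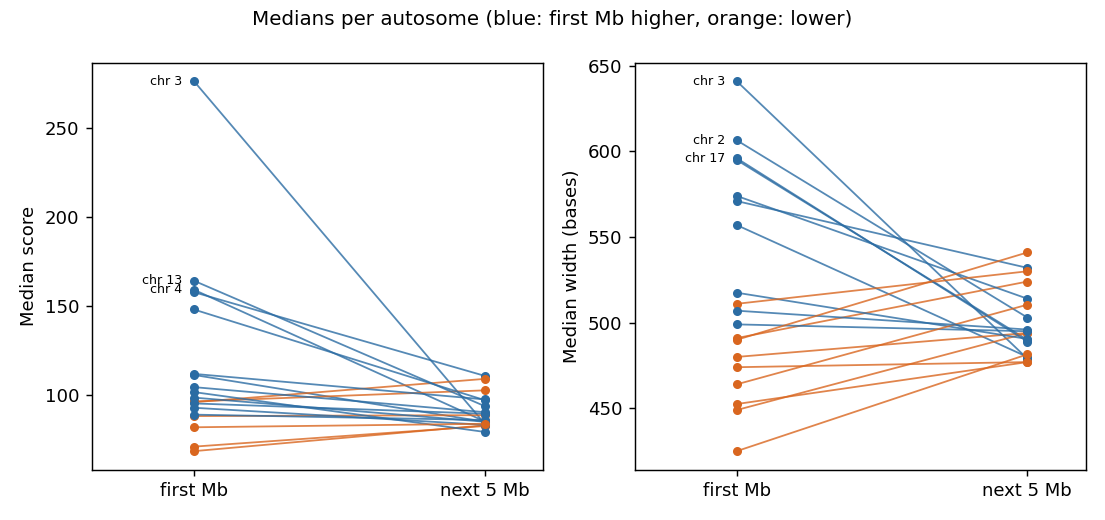
Median score (left) and median width in bases (right) of the peaks of each autosome in the first assembled megabase and in the next 5 Mb; each line is an autosome, blue where the first megabase is higher and orange where it is lower. Scores are higher beside the gap on 13 of 19 autosomes, with chromosome 3 far above the rest, and widths on 10 of 19.

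Median widths per autosome did not differ by a detectable amount. They were 521 ± 61.6 bases beside the gap and 500 ± 19.9 bases in the next 5 Mb (mean ± SD, n = 19 autosomes), a difference of 21.2 ± 64.6 bases with an adjusted p of 0.228 in the same exact permutation test. Chromosomes 3, 2 and 17 had the widest medians beside the gap, at 641, 607 and 596 bases, and chromosome 6 the narrowest, at 425 bases. The 5 widest peaks under the 4 kb limit were those of 3757, 3242 and 3212 bases already described on chromosomes 3 and 16, a peak of 2543 bases on chromosome 3 at 3324251 (score 692.45) and the peak of 2531 bases on chromosome 11.

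Within the megabase, the pooled peaks of the first 100 kb differed from the rest, but most of them lay on chromosomes 17, 11 and 3. This stretch was chosen after its values were seen and carries no test. It held 42 peaks on 11 autosomes (15 of them on chromosome 17, 8 on chromosome 11 and 6 on chromosome 3), and its medians were 793 bases for width and 311 for score. For the 590 peaks of the other 900 kb these medians were 500 bases and 92.9. Widths above 1 kb were found in 40.5% of the 42 and in 6.10% of the 590, against 4.59% of all autosomal peaks. Leaving out wide peaks, the medians in the first 100 kb were 742 bases and a score of 174, with narrower neighbours of the wide blocks still included. Outside chromosomes 17, 11 and 3, the only peak above 1 kb in this stretch was the wide one on chromosome 4. The others there measured 264 to 847 bases. The medians were not computed without these chromosomes. From 100 kb on, the steps of 100 kb had median widths between 446 and 594 bases, with 48 to 79 peaks each.

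**Figure D5:**
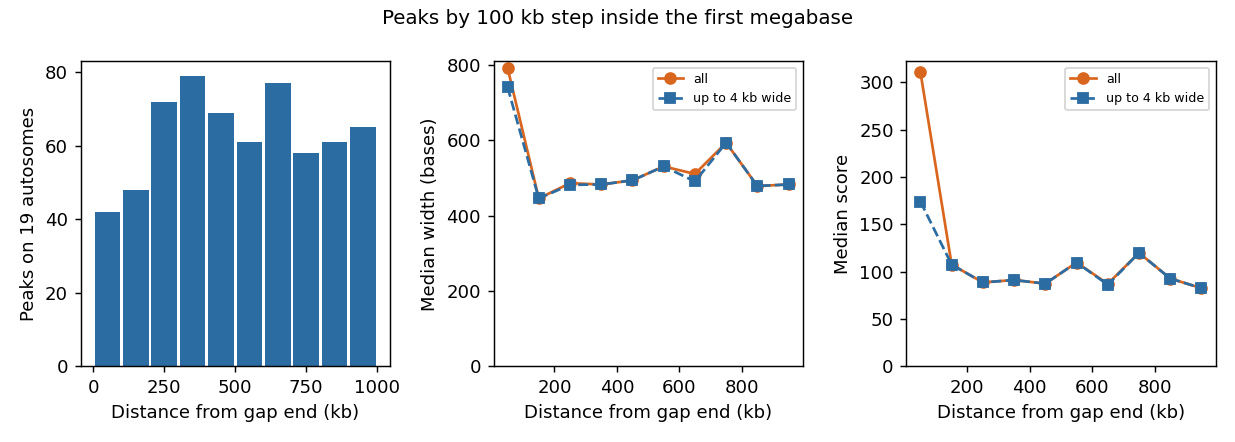
Peaks on the 19 autosomes in steps of 100 kb from the end of the gap: number of peaks (left), median width in bases (middle) and median score (right), for all peaks and for those up to 4 kb wide. The first step has the fewest peaks, 42, and the highest medians, 793 bases and a score of 311. Most of these 42 lie on chromosomes 17, 11 and 3.

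Pooled over autosomes, distances between peaks were close to those elsewhere, while the result for medians per autosome depended on the stretch compared with. The distance from a peak to the next had a median of 8438 bases (quartiles 2306 and 23645), against 9033 bases in the next 5 Mb and 8326 bases on all autosomes. A following peak within 10 kb was found for 338 of 632 (53.5%, exact 95% interval 49.5% to 57.4%), against 54.6% of all autosomal peaks with a next peak. The shortest median per autosome was 3875 bases (chromosome 19) and the longest 1420327 bases (chromosome 14). The mean of these medians differed by 90612 bases from that in the next 5 Mb (adjusted p = 0.154, exact permutation test over 19 autosomes). That mean rests on chromosome 14: without it the difference was 17195 bases (adjusted p = 0.307, exact permutation test). With the 16 autosomes that had 10 or more peaks, a restriction chosen after seeing the data, the means were 18942 bases and 16617 bases in the next 5 Mb. Of these autosomes 8 had longer and 8 had shorter distances beside the gap (adjusted p = 0.615, exact permutation test). Against all later peaks of each chromosome, the mean of the medians was 107863 bases beside the gap and 9084 bases later, longer on 13 of 19 autosomes (adjusted p = 0.0155, exact permutation test). Without chromosome 14 these means were 34948 and 8883 bases (adjusted p = 0.0310, exact permutation test). At very short distances the pooled share was somewhat higher, with 71 next peaks within 500 bases (11.2%) against 7.66% on all autosomes and 7.21% in the next 5 Mb. In 4 of these 71 pairs the first peak was a wide one, and others lay among close neighbours of wide peaks. Many of the 71 lay on chromosomes 11, 19 and 8, which held 40.7% of the 632 peaks. The share was not computed per autosome or without the wide regions and has no interval, so it shows no general trait of the megabase.

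Peaks were joined into chains where neighbours were up to 10 kb apart. The 3 chains with the most peaks held no wide peak, but chains with fewer peaks did. Of 298 chains, 179 were single peaks, and 27 had 5 or more peaks and held 208 of the 632 (32.9%) on 9 autosomes. Joined the same way, 33.6% of the peaks in the next 5 Mb and 36.1% of all autosomal peaks were in chains of this size. The longest lay on chromosome 19 from 3385717 to 3460371, with 15 peaks, a median score of 74.1 and a highest score of 442.85. Chromosomes 11 and 8 each had a chain of 12 peaks, at 3234829 to 3270955 and at 3592857 to 3614341. The chain on chromosome 11 held 1 peak scored at 3100 and that on chromosome 8 held 2, among weaker ones, with median scores of 128 and 101. The chain on chromosome 8 was the denser, with 55.9 peaks per 100 kb. No wide peak was in any of these 3 chains. Chains of 5 or more but fewer peaks than these held wide peaks on chromosome 16 (7 peaks, 2 of them wide) and on chromosomes 11, 17 and 3. The latter had 6 peaks each, with 1, 3 and 2 wide.

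The 4 Mb limit that defines the set fell close to a peak on some autosomes and in a long empty stretch on others. On chromosomes 14, 3 and 15 the stretches without a peak across it measured 1420327, 634862 and 470225 bases. The last peak inside it lay on chromosome 12 from 3999817 to 4000217, 184 bases before the limit (401 bases, score 137.9). The first one outside lay on chromosome 19 from 4000261 to 4000907 (647 bases, score 117.55).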

How the data were processed

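The deposited peak list gives a chromosome, start, end, name and score for each peak, with no header. Peaks were called by the authors with MACS 1.4.1 on build mm9, after CASAVA 1.8.2, per the submitters' processing notes; for the aligner, read totals and caller settings the sources give nothing, and the depth behind a peak is unknown. The score column was deposited by the authors as their peak caller wrote it. Starts were deposited counted from 0 and are printed counted from 1.

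Members were taken by start under 4 Mb on chromosomes 1 to 19 and density beside the gap was counted over 1 Mb. Medians per autosome were compared with the next 5 Mb by exact sign-flip permutation tests (524288 sign patterns), adjusted over 4 measures; autosomes of 1 library are not cultures, so these p-values do not measure biological replication. Named peaks were all wider than 4 kb, the 10 highest-scoring and 5 widest of the others, the first of each autosome and those at the limit. Members and measures were chosen with earlier results of these data known. Python 3.11.15, NumPy 2.4.6, pandas 2.3.3, SciPy 1.17.1 and Matplotlib 3.10.9 were used, and the paired test was tested on simulated data. Simulated positions and scores were drawn independently, with a minimum expected density on every autosome. Clustered peaks and autosomes as sparse as chromosome 14 were therefore not covered. Neither sequence nor gene positions of mm9 were used here.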

Additional observations from a re-analysis of the deposited data

How the results depend on the processing

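The paired measures were recomputed in 25 other settings: 6 changes of peaks, window or region compared, and leaving out each of the 19 autosomes. The width difference of 21.2 bases stayed positive and short of the threshold in all 25. The density difference of 1.00 per Mb reversed to −5.29 against all later peaks and to −1.89 without chromosome 8, and was 0 with peaks up to 1 kb apart merged. The distance difference passed the threshold with merged peaks (93629 bases) and against all later peaks (98778 bases). With chromosome 14 also left out, a choice made after seeing the data, the distance difference passed against all later peaks (26065 bases), where the density difference was −4.13 per Mb, and did not pass with merged peaks (20385 bases), where the score difference (22.7) lost its call. The score difference of 26.1 kept its direction in all 25 and lost its call in 10: at scores of 100 or more (62.3), with starts under 3.5 Mb (24.9), with starts under 5 Mb against 5 to 10 Mb (20.8), and without chromosome 1 (24.9), 2 (26.1), 3 (16.8), 4 (23.4), 13 (23.6), 14 (24.7) or 17 (26.3). A further 2 alternatives, chosen after seeing the data, lost it too: autosomes with 10 or more peaks (24.0) and without starts under 3.1 Mb (18.0, adjusted p = 0.0546 in the exact permutation test). The cause was not tested. Shares moved with their own limits: 12.3% scored 500 or more (all autosomal peaks 10.3%), 24.7% scored 200 or more (21.6%) and 1.42% scored 3000 or more (1.69%), the last below the autosomal share. The next peak lay within 5 kb for 38.4%, within 50 kb for 85.9% and within 10 kb after merging for 45.1%. The matching distance shares of all autosomal peaks are not given here, so these values carry no comparison. Pairing above is of 2 stretches of the same autosome. No paired analysis was possible because libraries to pair are lacking, with 1 ChIP and 1 input library, and for the same reason no replicate could be left out. Without read totals, the precision of scores near the minimum of 50 is unknown.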
